A study of Mus musculus with 6 samples.

Results

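The genes described here lie around Apoe on mouse chromosome 7, within about 5 Mb to each side of it (mm39). Members were the genes lying wholly inside that interval whose symbols do not begin with Rsph, Cfap, Rpl or Rps and whose CPM (read counts scaled to a common library total, here the raw column total) exceeded 1 in at least 3 of the 6 libraries. The terms of the rule used position and measured levels, and not the difference between groups. The members were, however, chosen with earlier results of these data known, so the shares below describe them and are no independent support. It gave 99 genes, from 15651133 to 24328722, of the 514 annotated there and of 56748 in the table. Of the other genes, 332 had no count in any library and 83 had counts but stayed below the rule; the excluded symbols removed no gene that met it. By biotype, 91 members were protein-coding, 5 were lncRNA, 2 were TEC models (unverified transcripts awaiting experimental evidence) and 1 was a processed pseudogene.

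The libraries were bulk RNA from whole aorta of 6-month-old mice, all labelled as lacking apolipoprotein E (Apoe -/-) and all given angiotensin II for 28 days from an osmotic minipump. The WT group held 3 littermates that were wild type for soluble ST2, the secreted decoy receptor for the cytokine IL-33, and the sST2-KO group held 3 littermates without it. Both groups thus share the Apoe label and the angiotensin II. The sources used here give neither the Apoe and sST2 alleles nor the strain and sex, and bulk RNA cannot separate fewer cells of a type from less RNA per cell.

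Apolipoprotein E is a lipid carrier made mainly by hepatocytes and macrophages that lets lipoprotein remnants be taken up by receptors of the LDL receptor family; mice without it accumulate remnants and develop atherosclerosis, and angiotensin II infusion adds aneurysm and dissection of the aorta. Apoe lies in a cluster with Apoc1, Apoc4 and Apoc2, which encode smaller apolipoproteins that adjust lipoprotein lipase and remnant uptake. The genes beside the cluster have no common role: they include the mitochondrial import gene Tomm40, the adhesion genes Nectin2 and Bcam, the NF-kB genes Relb and Bcl3, and the DNA repair genes Ercc1 and Ercc2.

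Total counts were 15615658 to 17988552 per library. Smooth muscle markers (Myh11, Acta2 and 8 others) were found in all 6 libraries, with a summed level of 3272 to 9876 CPM in WT and of 5380.0 to 11023 CPM among sST2-KO libraries. The library of WT replicate 3 held a hepatocyte marker sum of 10873 CPM against 9.43 to 15.6 CPM elsewhere, and that of sST2-KO replicate 2 held an airway epithelium marker sum of 45594 CPM where the rest had 35.2 to 93.2 CPM. The share of mitochondrial transcripts was 37.8% in WT replicate 2, 7.08% in sST2-KO replicate 2 and 18.4 to 23.7% in the others. Adipocyte marker sums were lowest in WT replicate 2 and sST2-KO replicate 2 (1749.8 and 1446 CPM, against 4828 to 11536 CPM elsewhere). Erythroid sums were 746 to 4772 CPM in WT and 60.5 to 1179 CPM in sST2-KO, and endothelial sums 1031 to 1262 and 791 to 2087 CPM. From WT to sST2-KO, all 8 erythroid markers had negative log2 changes. Those of 9 of 10 smooth muscle and 8 of 9 endothelial markers were positive, and edgeR called 0 of them. Their part in the levels of single genes was not tested. Where the log2 change of a gene covered by the naming rule moved by over 1.5 times without 1 library, the value without it is also given.

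The bases before the transcription start are shown for 4 genes to which the results below return: Apoe, its abundant neighbour Bcam, and Klc3 and Dmwd, which separated the groups clearly. Each is the stretch of 250 bases upstream of the start in RefSeq, build GRCm38.p6, 5′ to 3′ on the strand of the gene. Capitals mark a GC box (GGGCGG) or a CCAAT box (CCAAT) on either strand. Apoe is at chr7:19699189-19699438 on the minus strand, Bcam at chr7:19770533-19770782 on the minus strand, Klc3 at chr7:19404105-19404354 on the minus strand and Dmwd at chr7:19075950-19076199 on the plus strand.
Apoe: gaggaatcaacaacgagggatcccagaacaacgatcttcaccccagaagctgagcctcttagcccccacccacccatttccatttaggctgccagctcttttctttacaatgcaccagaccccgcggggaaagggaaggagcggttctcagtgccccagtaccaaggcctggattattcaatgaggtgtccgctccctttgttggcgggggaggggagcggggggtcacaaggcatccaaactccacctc
Bcam: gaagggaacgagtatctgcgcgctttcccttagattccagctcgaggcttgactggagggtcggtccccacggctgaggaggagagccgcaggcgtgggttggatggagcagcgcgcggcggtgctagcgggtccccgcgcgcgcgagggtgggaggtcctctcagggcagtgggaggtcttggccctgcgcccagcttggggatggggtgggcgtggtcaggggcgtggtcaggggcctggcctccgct
Klc3: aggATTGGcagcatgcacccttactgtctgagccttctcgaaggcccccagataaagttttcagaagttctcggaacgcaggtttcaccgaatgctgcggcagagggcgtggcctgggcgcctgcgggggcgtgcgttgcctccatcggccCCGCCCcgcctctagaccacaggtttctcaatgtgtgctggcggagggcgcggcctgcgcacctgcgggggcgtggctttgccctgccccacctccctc
Dmwd: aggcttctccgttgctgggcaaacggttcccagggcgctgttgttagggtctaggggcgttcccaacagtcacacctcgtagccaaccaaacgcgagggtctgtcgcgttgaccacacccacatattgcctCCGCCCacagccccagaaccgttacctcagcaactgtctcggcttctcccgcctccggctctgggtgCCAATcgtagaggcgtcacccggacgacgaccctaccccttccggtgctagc
Klc3 and Dmwd each held 1 GC box and 1 CCAAT box, and Apoe and Bcam held neither. RefSeq entries matched 80 members by symbol. A GC box was present in 49 of these 80 (61.3%), against 60.9% of the 11706 tested genes with an entry, and a CCAAT box in 26 (32.5%), against 39.9%. A TATA box (TATAAA) was found in 3 (3.75%, against 8.47%), an E-box (CACGTG) in 8 (10%, against 9.53%) and an AP-1 site (TGANTCA) in 3 (3.75%, against 5.95%), with each motif searched on both strands; none of the motifs contains another. The median GC content of the 250 bases was 58.4% in members and 59.2% in tested genes.

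Apoe (ENSMUSG00000002985, chromosome 7, 19430034 to 19433113, minus strand, mm39) had counts in every library although all 6 are labelled as lacking it. WT replicates 1 to 3 held 274, 145 and 8509 reads of it, and sST2-KO replicates 1 to 3 held 3030, 1753 and 2187. In CPM after TMM scaling, the level unit used from here on, the WT aortas were at 15.1, 11.6 and 507 and those without sST2 at 172, 86.7 and 145. WT replicates 1 and 2 were the lowest, WT replicate 3 the highest, and the 3 sST2-KO libraries lay between them. A count per gene does not show which part of the gene the reads came from, and the deleted part is not given here, so these counts do not check the Apoe genotype. The WT mean was 178 ± 285 CPM and the sST2-KO mean 135 ± 43.7 CPM (SD, n = 3 each). The log2 change from WT to sST2-KO, -0.40 (SE 1.31), missed the threshold (adjusted p = 0.911 by the quasi-likelihood test of edgeR). It was -0.95 and -0.97 without WT replicates 1 and 2 in turn, and -0.62, -0.16 and -0.46 without sST2-KO replicates 1 to 3 in turn. Without WT replicate 3, the library with hepatocyte transcripts, the log2 change was 3.34 (edgeR adjusted p = 0.69). Without both that library and sST2-KO replicate 2 it was 3.57 (edgeR adjusted p = 0.151). The part of hepatocyte RNA in the value of that library was not tested; in the other 5 libraries the hepatocyte sum was at most 15.6 CPM, and Apoe still ranged from 11.6 to 172 CPM. The macrophage marker sum was 3239.9 to 3891 CPM in WT and 2295 to 4017 CPM among sST2-KO libraries. It overlapped between the groups, with the 4017 CPM in sST2-KO replicate 2, the library with airway transcripts. Single markers were mostly lower: 10 of 11 had negative log2 changes, 7 at an unadjusted p under 0.05 in edgeR (5.95% of all tested genes). The groups were apart for 6, all lower (10% of all tested genes). DESeq2 called 5 lower (1.42%) and edgeR called 0. The relation of Apoe to these markers was not tested.

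Apoc1 (chromosome 7, 19423406 to 19426585), which lies 3.45 kb from Apoe and encodes a small apolipoprotein of remnants, had 31.2, 3.19 and 61.1 CPM in WT libraries, against 85.4, 10.3 and 66.3 CPM without sST2. It was lowest in WT replicate 2 and sST2-KO replicate 2, the libraries with the lowest adipocyte marker sums, so the groups overlapped (log2 change 0.76, SE 1.03, edgeR adjusted p = 0.765). The log2 change was 0.21 without WT replicate 2, 1.63 without WT replicate 3, 0.27 without sST2-KO replicate 1 and 1.25 without sST2-KO replicate 2. The part of fat tissue in this was not tested, and WT replicate 2 was the lowest library for 48 of the 99 members. Apoc1 and Apoe did not take the same order: the highest Apoc1 library was sST2-KO replicate 1 and the highest Apoe library WT replicate 3. Apoc4 and Apoc2 were not members. Apoc4 had 257 counts (15.3 CPM) in WT replicate 3 and 1 to 13 counts elsewhere, and Apoc2 had 5 counts in WT replicate 3 and 0 in the other libraries, where 3 counts would be 0.167 to 0.192 CPM.

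**Figure D1:**
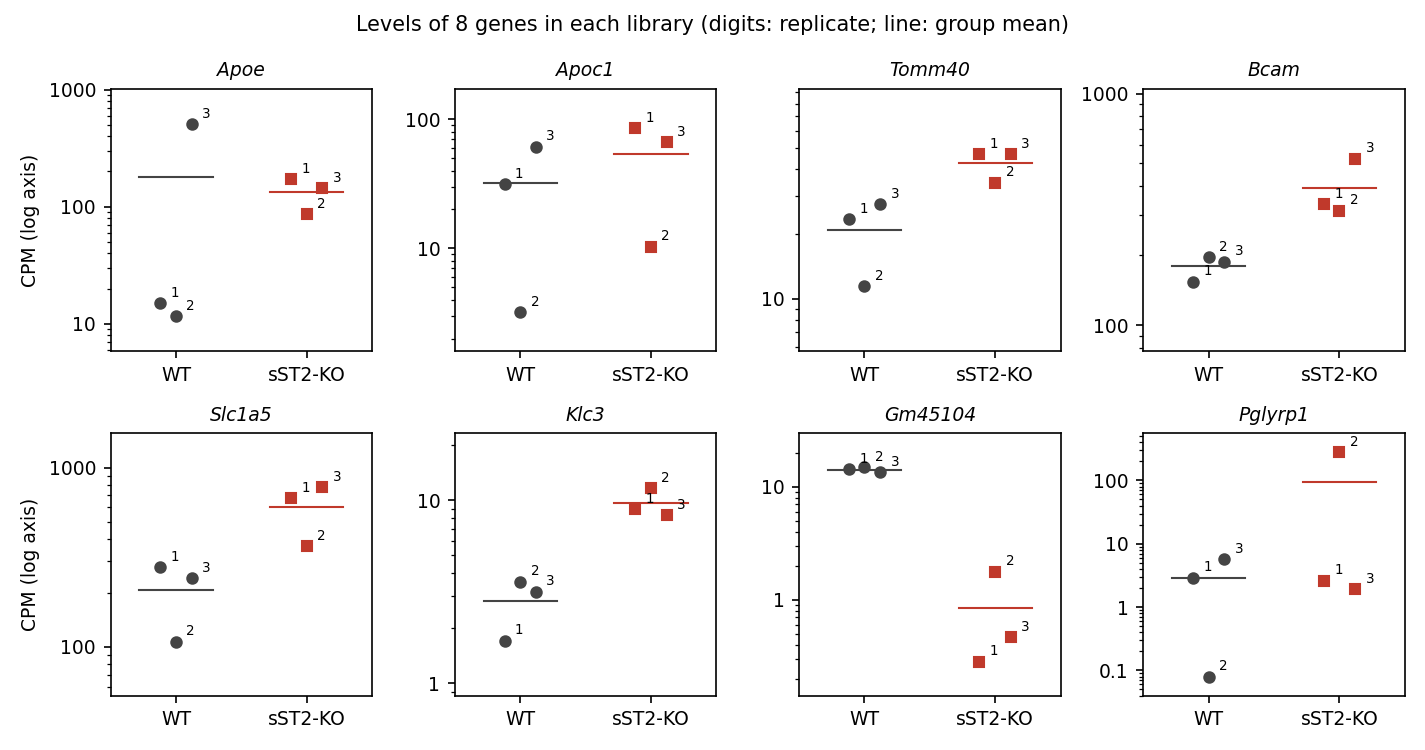
Level of 8 genes around Apoe in each library, in CPM on a log axis, with the replicate number beside each point and a line at the group mean. Apoe was highest in WT replicate 3 at 507 CPM, Bcam, Slc1a5, Klc3 and Tomm40 were higher in all 3 sST2-KO libraries than in all 3 WT libraries, Gm45104 was lower in all 3, and Pglyrp1 stood out in sST2-KO replicate 2 at 278 CPM.

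No member passed the threshold. The test, with edgeR and adjustment over 16377 genes, called 0 members higher and 0 lower, as it did over all genes (percent called 0 in either direction; lowest adjusted p among members 0.322). At an unadjusted p under 0.05, 28 members were higher in sST2-KO and 1 was lower; over all tested genes these shares were 5.08% higher and 5.95% lower. DESeq2 called 8 members higher (0.360% of all tested genes) and 1 lower (1.42%), and gave no adjusted p for 7. The higher ones included Dmwd, Klc3, Meis3, Smg9, Bcam, Ercc2 and Slc1a5, and the lower one was Gm45104, which was also the only member called by limma-voom with sample quality weights (0.214% of all tested genes were called lower there and 0.0488% higher, with 0 members). The groups did not overlap for 39 members higher in sST2-KO, against 9.09% of all tested genes, and for 3 lower, against 10%. Log2 changes were positive for 77 members (53.5% of all tested genes) and negative for 22. Their median was 0.41, with the middle of the members between 0.047 and 0.70, beside a median of 0.042 over all tested genes and of 0.12 over the 1151 tested genes of chromosome 7 outside the interval. Of those 1151 genes 60.4% had positive log2 changes. At an unadjusted p under 0.05 in edgeR 8.25% of them were higher and 5.73% lower. Their groups were apart for 13.2%, higher, and for 8.6%, lower. The shares of members describe genes chosen with earlier results of these data known, and the members were not tested as a set. All 99 members entered the test of single genes. Only 1, the lncRNA 9330104G04Rik, met the level rule in the 3 sST2-KO and in 0 WT libraries, so its direction was partly fixed by the rule, while 86 exceeded 1 CPM in all 6.

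The count of higher members was also taken without the libraries that stand apart. Without WT replicate 3 and sST2-KO replicate 2 together, 22 members were higher and 3 lower at an unadjusted p under 0.05, where 4.1% of the 16384 genes tested in that fit were higher and 4.08% lower; the median was 0.46. Without WT replicate 2 the numbers were 22 and 2, where 2.82% of 17371 tested genes were higher and 5.85% lower, and the median was 0.33. By library, the median over members of log2(CPM + 1) minus the mean of each gene was negative in the 3 WT libraries, at -0.11, -0.38 and -0.067 in order of replicate, and positive in the sST2-KO ones, at 0.17, 0.21 and 0.25. WT replicate 2 was the lowest library for 48 of the 99 members.

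**Figure D2:**
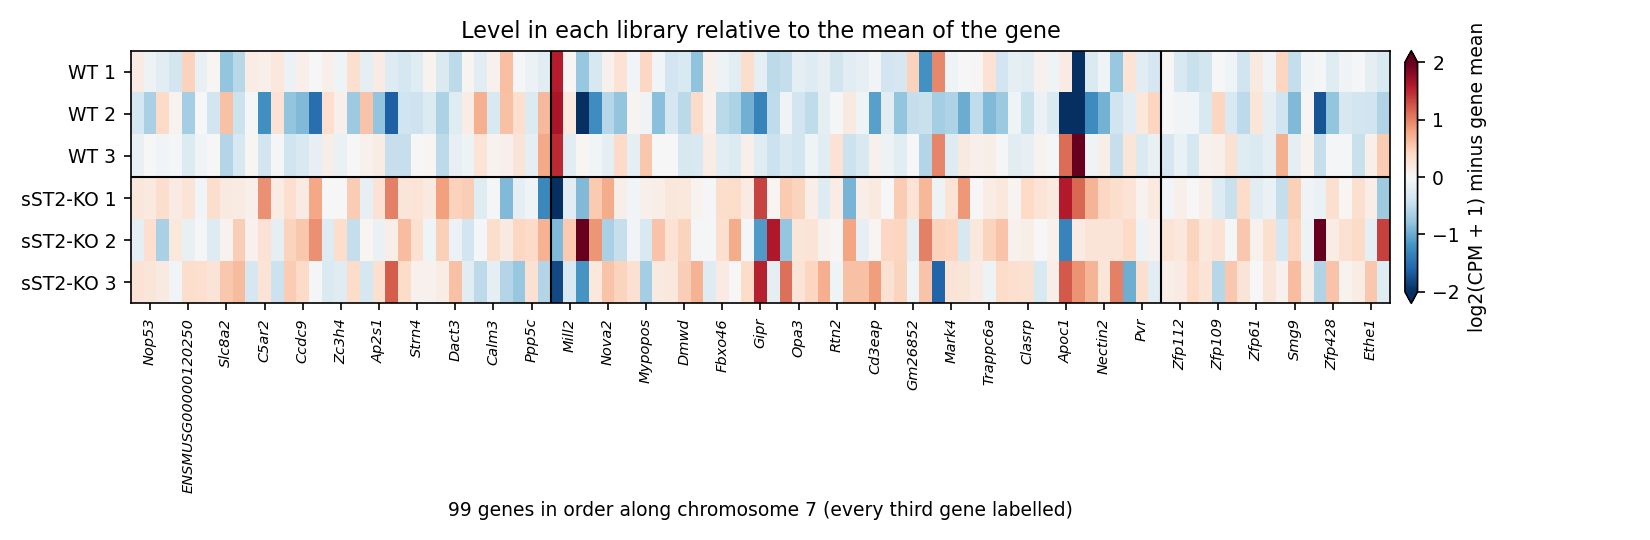
Level of each of the 99 genes in each of the 6 libraries, as log2(CPM + 1) minus the mean of the gene, in order along chromosome 7; vertical lines divide the 3 stretches of genes and the horizontal line divides the groups. WT replicate 2 was mostly below the mean (median -0.38), and the 3 sST2-KO libraries were mostly above it (medians 0.17 to 0.25).

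Log2 changes over all genes were ordered by the base composition of the transcripts. Over 16164 tested genes with a GC value, the median log2 change went from -0.24 in the decile with the lowest GC content to 0.34 in the decile with the highest. The members had a median GC content of 56.3% against 49.6% over tested genes, and 71 of the 98 with a value lay in the 3 highest deciles. Of all tested genes in those 3 deciles 66.6, 72 and 78% had positive log2 changes, in rising order of GC content. This stands beside 77.8% of the members and 53.5% of all tested genes. Taken relative to the median of all tested genes in the same decile, the median of the members was 0.18, with 63 above and 35 below. Without WT replicate 2 the medians of the lowest and highest deciles were -0.091 and 0.22, and that of the members relative to their deciles was 0.20. Across the 6 deciles with 5 or more members, the medians of the members were positive and not ordered by GC content (0.12, 0.23, 0.011, 0.62, 0.28 and 0.58 from the fifth to the highest). The part of GC content in the difference of any single gene was not tested.

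**Figure D3:**
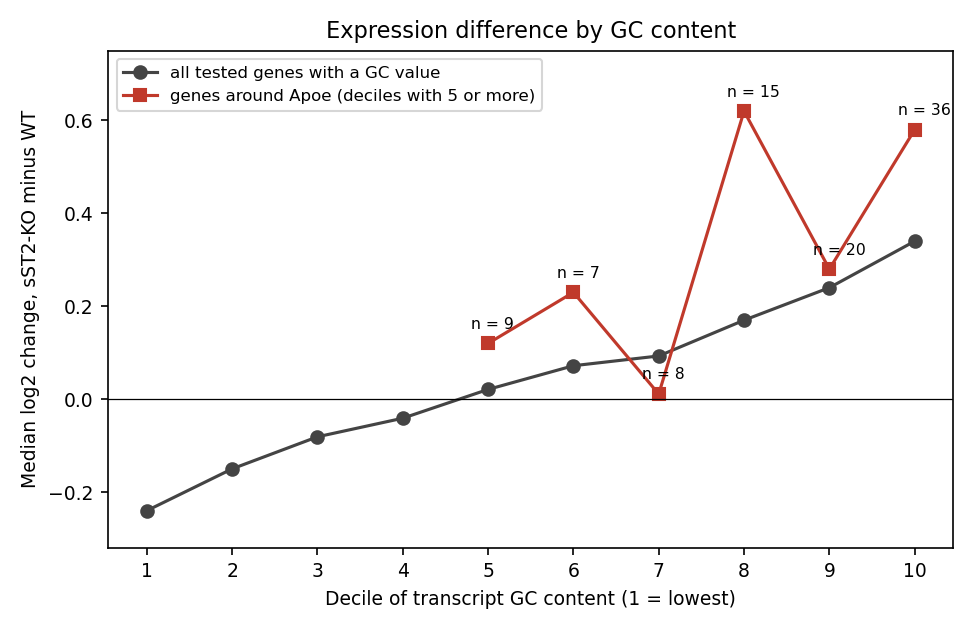
Median log2 change (sST2-KO minus WT) of all tested genes and of the genes around Apoe in deciles of transcript GC content, with the number of genes around Apoe beside each point. The median of all genes went from -0.24 to 0.34, and the genes around Apoe were at 0.62 in the eighth, 0.28 in the ninth and 0.58 in the highest decile.

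Along the chromosome the members fell into 3 stretches divided by gaps of more than 1 Mb. The stretch farthest from Apoe on the centromeric side ran from Selenow to Hif3a (33 members over 1.15 Mb), the middle one, which holds Apoe, from Gm45104 to Gm16184 (48 members over 1.52 Mb), and the last from Zfp180 to Phldb3 (18 members over 0.547 Mb). The gaps of 1.33 and 4.13 Mb held 31 and 185 annotated genes. The interval as a whole has 99 vomeronasal receptor (Vmn1r), 46 Obox and 14 pregnancy-specific glycoprotein (Psg) genes, with 0 members among them. The median log2 change was 0.26, 0.54 and 0.39 in the 3 stretches, with 10, 15 and 3 members higher at an unadjusted p under 0.05. Within 100 kb of Apoe 3 of 8 members were higher by that measure and beyond 2.5 Mb 13 of 51. Over all tested genes 5.08% were higher by it. The longest run of neighbours with the same sign was 15 positive members, from Fbxo46 to Ercc2.

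**Figure D4:**
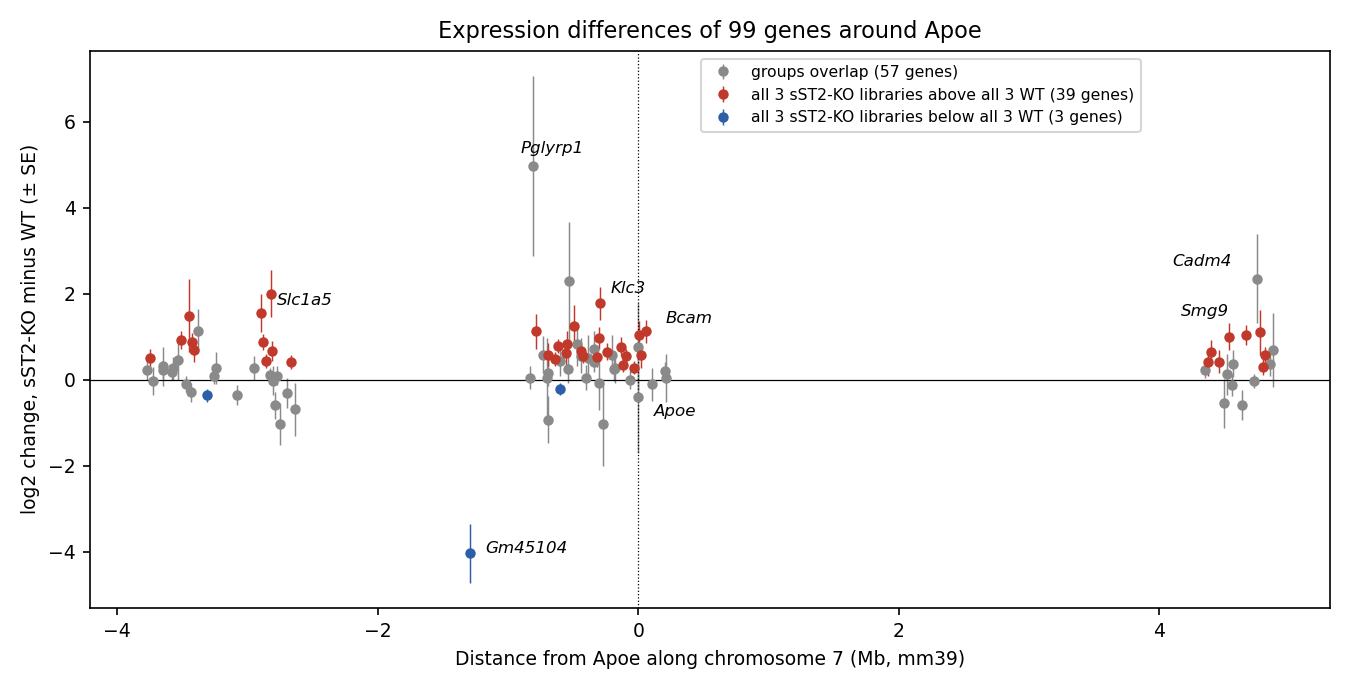
Log2 change (sST2-KO minus WT) with its SE for 99 genes against their distance from Apoe in Mb; colour shows whether the groups of 3 libraries overlapped. Members with all sST2-KO libraries above all WT libraries (39) lay in all 3 stretches, and the lowest value was Gm45104 at -4.04.

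The largest difference of the interval by unadjusted p belonged to Gm45104 (ENSMUSG00000109209, chromosome 7, 18130441 to 18134790, minus strand), a single TEC model of unknown function that was chosen for description after its values were seen. It was counted 259, 187 and 227 times in the 3 WT libraries, in order of replicate, and 5, 36 and 7 times in the 3 without sST2. The WT libraries lay close together at 14.3, 14.9 and 13.5 CPM, and the sST2-KO libraries were at 0.284, 1.78 and 0.466 CPM. The means were 14.2 ± 0.687 and 0.844 ± 0.817 CPM (SD, n = 3 each). The log2 change was -4.04 (SE 0.68; edgeR unadjusted p = 0.00059, adjusted p = 0.322). DESeq2 called it (adjusted p = 1.83e-07). Without sST2-KO replicate 2, the highest of its group, the log2 change was -5.23 and edgeR called it (adjusted p = 0.0493), the only gene of the table called in that fit. Without each of the other 5 libraries in turn it was not called (edgeR adjusted p = 0.262 to 0.69), nor when WT replicate 3 was left out together with sST2-KO replicate 2 (edgeR adjusted p = 0.151). It lies 1295.2 kb from Apoe, overlaps no other gene of the table, and its flanking models at 19 and 17 kb had 0 counts in all libraries. The nearest member, Mill2, 439 kb away, encodes an MHC class I-like protein and had a log2 change of 0.048 (SE 0.26). The transcript of Gm45104 is poor in GC (38.5%), unlike most members.

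The first 3 members on the telomeric side of Apoe had higher levels in all sST2-KO libraries than in all WT libraries, and none passed in edgeR. Tomm40, the pore of the mitochondrial import complex, 2.12 kb from Apoe, had 23.4, 11.4 and 27.4 CPM in WT, and the sST2-KO libraries had 46.6, 34.4 and 46.7 CPM. The groups did not overlap (log2 change 1.04, SE 0.33, edgeR adjusted p = 0.431). Nectin2, an adhesion receptor of cell junctions, had 26.4, 14.1 and 30.4 CPM in the WT aortas and 37.8, 33.9 and 33.3 CPM in those without sST2, again without overlap (0.57, SE 0.29; 0.28 without WT replicate 2). Reads of both can be shared with the overlapping model Gm20512. Bcam, a laminin receptor found on smooth muscle, endothelium and red cells, had 154, 196 and 188 CPM in WT libraries, against 333, 312 and 523 CPM without sST2. Its means were 179 ± 22 and 389 ± 116 CPM (SD, n = 3 each). The log2 change, 1.12 (SE 0.26), was one that DESeq2 called (adjusted p = 0.00836) and edgeR did not (adjusted p = 0.358). Bcl3, an IkB-family regulator a little farther out, overlapped between the groups (-0.11, SE 0.39).

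On the centromeric side of Apoe, Clptm1, a membrane protein gene 31.1 kb away, had 82.5, 71.7 and 85.3 CPM in WT, and the sST2-KO libraries had 101, 93.6 and 96.3 CPM (log2 change 0.28, SE 0.15). Clasrp, a regulator of splicing, had 46.2, 39.2 and 47.6 CPM in the WT aortas and 70.7, 58.3 and 66.4 CPM in those without sST2 (0.55, SE 0.16, edgeR adjusted p = 0.416). Both separated the groups, whereas Relb, an NF-kB subunit that lies between them, did not: it had 22.2 ± 1.74 CPM in WT, with 22.1 ± 4.57 CPM without sST2 (SD, n = 3 each; log2 change -0.0028, SE 0.21). Ppp1r37, a regulator of protein phosphatase, was at 49.2, 37.9 and 63 CPM in WT libraries, against 74.3, 96.1 and 83.6 CPM without sST2 (0.76, SE 0.22). Of the 8 members within 100 kb of Apoe, 5 had groups apart, all higher (9.09% of all tested genes), and Apoe, Apoc1 and Relb overlapped.

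Farther along the middle stretch, Klc3, which encodes a kinesin light chain that links cargo to microtubule motors, had 1.71, 3.59 and 3.16 CPM in WT, and the sST2-KO libraries had 8.92, 11.6 and 8.25 CPM. Its log2 change of 1.77 (SE 0.38) was called by DESeq2 (adjusted p = 0.00235) and not by edgeR (adjusted p = 0.339). Klc3 overlaps Ercc2, the helicase of transcription factor TFIIH, which had 8.55, 5.98 and 9.3 CPM in the WT aortas and 16.1, 15.2 and 15.4 CPM in those without sST2 (0.97, SE 0.25); the strand setting of the counting is not given here, so reads in the shared part cannot be assigned. Ckm, the muscle creatine kinase, starts 672 bases from Klc3 on the other strand and showed no such pattern, with 6.12, 1.28 and 6.2 CPM in WT libraries, against 2.39, 4.01 and 0.2 CPM without sST2 (-1.04, SE 0.97). Striated muscle marker sums were 28.9 to 451 CPM in WT, with 67.5 to 329.6 CPM among sST2-KO libraries, and Ckm and this sum were both low in WT replicate 2 and sST2-KO replicate 3; their relation was not tested.

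Dmwd, a WD-repeat gene next to the myotonic dystrophy kinase gene, had the lowest unadjusted p of the higher members in edgeR (adjusted p = 0.339). Levels were 35.2, 29.7 and 34.6 CPM in WT, and the sST2-KO libraries had 50.6, 59.6 and 61.9 CPM. The means were 33.2 ± 3 and 57.4 ± 6 CPM (SD, n = 3 each; log2 change 0.79, SE 0.16). Dmpk, that kinase gene, begins directly after it and is abundant in smooth muscle; it had 164, 377 and 234 CPM in the WT aortas and 301, 281 and 465 CPM in those without sST2, so the groups overlapped (0.44, SE 0.36). Without WT replicate 1, WT replicate 2 or sST2-KO replicate 3 the log2 change of Dmpk was 0.21, 0.79 or 0.17. The 2 libraries with the highest smooth muscle sums, WT replicate 2 and sST2-KO replicate 3, also had the highest Dmpk, and the part of this was not tested. Six5, a homeobox gene next to Dmpk, was lower in all sST2-KO libraries by a small margin, 31.1 ± 0.796 against 26.6 ± 2.35 CPM (SD, n = 3 each; -0.22, SE 0.15). Dmwd, Dmpk and Six5, which lie side by side, thus differed from each other in direction and overlap. Opa3, a mitochondrial membrane gene, had 18.4 ± 1.53 CPM in WT and 29 ± 2.4 CPM in the other group (SD, n = 3 each), with no overlap (0.66, SE 0.17).

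In the stretch from Selenow to Hif3a, Slc1a5, which carries glutamine into cells, was the most abundant gene with groups apart. It had 278, 107 and 242 CPM in WT libraries, against 675, 365 and 777 CPM without sST2, a log2 change of 1.54 (SE 0.44) called by DESeq2 (adjusted p = 0.0284) and not by edgeR (adjusted p = 0.416). Within each group it was lowest in the library with the least adipocyte transcripts, WT replicate 2 and sST2-KO replicate 2, and the part of fat tissue was not tested. Over all 99 members, WT replicate 2 was the lowest library for 48 and sST2-KO replicate 2 for 5. Gipr, the receptor for the gut hormone GIP, which fat cells express, lies instead in the middle stretch, 530.0 kb from Apoe. It had 0 and 3 counts in the same 2 libraries and 19 to 95 in the others, and its groups overlapped (2.29, SE 1.38). Strn4, a scaffold protein gene of the stretch from Selenow to Hif3a, had 52.8, 47 and 63.4 CPM in the WT aortas. It had 75.9, 77.8 and 66.8 CPM in those without sST2 (0.43, SE 0.17). Meis3, a homeobox gene, had 13.2, 14.5 and 15.7 CPM in WT libraries, against 22.4, 28.4 and 31.1 CPM without sST2 (0.92, SE 0.20, DESeq2 adjusted p = 0.0184).

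The same stretch held 10 of the 22 members with negative log2 changes. Sae1, a subunit of the SUMO-activating enzyme, had 55.5, 65.7 and 56.6 CPM in WT, and the sST2-KO libraries had 51.6, 43.1 and 42.5 CPM (log2 change -0.37, SE 0.16, edgeR adjusted p = 0.454) and separated the groups. Ptgir, the receptor by which prostacyclin relaxes vessels, had 9.37, 18.7 and 13.5 CPM in the WT aortas and 9.2, 10.8 and 7.38 CPM in those without sST2 (-0.60, SE 0.32; -0.35 without WT replicate 2), with overlap. Arhgap35, a GTPase-activating protein gene, was at 69.9 ± 19.3 and 54.7 ± 7.58 CPM (-0.35, SE 0.23; -0.13 without WT replicate 2), and Pnma8b at 4.84 ± 1.09 and 2.34 ± 1.34 CPM (-1.04, SE 0.49; SD, n = 3 each), also with overlap. Without sST2-KO replicate 2 the log2 change of Pnma8b was -1.61. C5ar1, the main receptor for complement C5a on myeloid cells, was at -0.30 (SE 0.23), while C5ar2, its neighbour and the other receptor for that peptide, was low in WT at 1.71, 0.0797 and 0.954 CPM and had 3.75, 2.08 and 2.06 CPM in sST2-KO (1.49, SE 0.84). Leaving out WT replicate 1 gave C5ar2 a log2 change of 2.29, and leaving out WT replicate 2 gave 0.96. Ehd2, a caveola gene and the member with the highest mean level apart from Slc1a5, was at 357 ± 81.4 and 349 ± 116 CPM (SD, n = 3; -0.033, SE 0.32). Of the 6 lower protein-coding members with the lowest p, Kcnn4, a calcium-activated potassium channel gene at the far end of the interval, also overlapped between the groups (-0.59, SE 0.35; -0.33 without WT replicate 3).

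In the stretch beyond the vomeronasal genes, Smg9, a component of the kinase complex of nonsense-mediated decay, had 13.5, 9.97 and 16.9 CPM in WT libraries, against 27.2, 26.2 and 29.9 CPM without sST2. The log2 change was 1.04 (SE 0.24), called by DESeq2 (adjusted p = 0.0185) and not by edgeR (adjusted p = 0.348). Xrcc1, a scaffold of single-strand break repair, had 28.4, 22.2 and 21.2 CPM in WT, and the sST2-KO libraries had 36.5, 38.1 and 32.3 CPM (0.57, SE 0.18). Plaur, the urokinase receptor of monocytes, was level at -0.024 (SE 0.16). The 10 Zfp zinc finger members, which share sequence with each other so that reads may be split among them, had 8 positive and 2 negative log2 changes. Their median was 0.39, and the groups were apart for 5, all higher (9.09% of all tested genes). Zfp93 had 2.43, 2.15 and 2.8 CPM in the WT aortas and 4.83, 5.59 and 4.39 CPM in those without sST2 (1.0, SE 0.32), Zfp235 was at 0.64 (SE 0.28), and Zfp180, the most abundant of them, was at 0.23 (SE 0.20) with overlap, at 0.12 without WT replicate 3 and at 0.14 without sST2-KO replicate 2.

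A few members were set by 1 library. Pglyrp1, a bactericidal peptidoglycan-binding protein of neutrophils and mucosal epithelium, had 278 CPM in sST2-KO replicate 2 and 0.0797 to 5.78 CPM in the other libraries; its log2 change of 4.97 (SE 2.09) became -0.38 without that library. Cadm4, an epithelial and glial adhesion gene, had 106 CPM there and 3.19 to 12.4 CPM elsewhere (2.35, SE 1.04; 0.25 without that library). Eml2, a microtubule-binding protein gene, had 106 CPM there, 35.3 and 29.9 CPM in the other sST2-KO libraries and 23.5 to 25.1 CPM in WT, so its groups did not overlap (1.25, SE 0.48; 0.44 without that library). Cblc, an epithelial ubiquitin ligase gene below the level rule, had 396 counts in that library and 0 to 12 elsewhere. This is the library with the airway transcripts, whose part in these values was not tested.

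Grouped by role, with lists drawn up with earlier results of these data known, 0 members of any list passed in edgeR. The counts below stand beside 77.8% positive and 28.3% higher at an unadjusted p under 0.05 in edgeR over all 99 members. Over all tested genes these were 53.5% and 5.08%, and in the 3 highest deciles of GC content 66.6 to 78% were positive. No list was compared with the other members. In the list of muscle, cytoskeleton and kinase genes 10 of 12 members had positive log2 changes, 6 had an unadjusted p under 0.05, all higher, and the median was 0.50. In that of RNA processing and transcription machinery the numbers were 10 of 11, 4 and 0.50, led by Smg9 and Clasrp, with the ribosome assembly gene Nop53 the most abundant (107 ± 24.1 and 151 ± 7.11 CPM; SD, n = 3 each; log2 change 0.50, and 0.30 without WT replicate 2). In mitochondrial, transport and metabolic genes they were 6 of 7, 4 and 0.66, and in DNA repair genes 3 of 3, 2 and 0.57. In vessel receptors and signalling genes they were 6 of 8, 2 and 0.43; the 2 were Dact3, a modulator of Wnt signalling (47.6 ± 6.3 and 75.1 ± 18.5 CPM), and the phosphatase gene Ppp5c (49.2 ± 2.8 and 65.5 ± 11.1 CPM; SD, n = 3 each). All 4 members of the cell adhesion list had positive log2 changes, with 1 under 0.05, Bcam, and a median of 0.84. That median includes Cadm4 at 2.35, which was at 0.25 without sST2-KO replicate 2. In stress, hypoxia and apoptosis genes the numbers were 4 of 5, 1 (Ppp1r37) and 0.52. Ppp1r13l, an inhibitor of p53, was at 0.52 (SE 0.23). Vesicle traffic genes had 6 of 7 positive, 0 under 0.05 and a median of 0.27, with Exoc3l2 at 0.58 (SE 0.46), at 0.25 without WT replicate 2 and at 0.20 without sST2-KO replicate 1. The inflammation and immune list had 3 of 8 positive and a median of -0.014, and its 1 member under 0.05 was Pglyrp1. The median of all tested genes was 0.042.

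Of 7 pairs of members on opposite strands whose starts lie within 1000 bases, 6 had the same sign in both genes, all positive, and 1, Klc3 with Ckm, had opposite signs. One of the 6 holds the lncRNA 9330104G04Rik, whose direction the level rule partly fixed, beside Dact3. Bloc1s3 and Trappc6a, genes of vesicle traffic whose starts are 28 bases apart, were at 0.25 and 0.27. As 77 members were positive, a shared sign in a pair is common among them. Other annotated genes overlapped 35 members, and the 64 with no overlap had a median of 0.30. Of these 64, 17 were higher and 1 lower at an unadjusted p under 0.05 (5.08% and 5.95% of all tested genes).

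Genes outside the interval that act with apolipoprotein E had log2 changes of either sign, and none passed in edgeR. Among 13 tested receptors and binding partners of it, 5 log2 changes were positive and 8 negative, with a median of -0.047 and 0 at an unadjusted p under 0.05 in edgeR. Lrp1, a large remnant receptor of smooth muscle and macrophages, had 884, 899.6 and 883 CPM in WT libraries, against 733, 618 and 592 CPM without sST2 (-0.46, SE 0.22, edgeR adjusted p = 0.481), without overlap. Sdc4, a heparan sulphate proteoglycan, was at 0.51 (SE 0.34). Among 13 tested genes of cholesterol efflux and LXR targets, 6 were positive and 7 negative, with a median of -0.15 and 1 in each direction at an unadjusted p under 0.05, Nr1h2 and Abca1. The transporter Abca1 had 256 ± 27.6 CPM in WT, with 164 ± 47.9 CPM without sST2 (-0.64, SE 0.26), and the receptor Nr1h2, which is also on chromosome 7 but outside the interval, had 78.6 ± 6.65 and 102 ± 4.89 CPM (SD, n = 3 each; 0.37, SE 0.15). Adjusted p-values were 0.445 and 0.443 (edgeR).

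Levels per gene length placed Selenow, a small selenoprotein gene, first among the members at 267 CPM per kb of gene model, followed by Slc1a5 at 97.6, Bcam at 88.9, Calm3 at 79, Apoe at 73.2, Dmpk at 70.2, Ehd2 at 68.9 and Apoc1 at 57.7. The place of Apoe rests on WT replicate 3: without it the mean was 86.2 CPM, or 40.3 CPM per kb. Mean levels ran from 0.946 to 407 CPM with a median of 20.6, and 9 members exceeded 100 CPM. Just inside the level rule, the third-highest library of Gm26852 was at 1.11 CPM of raw totals and that of 9330104G04Rik at 1.22; just outside, that of Gm10175 was at 0.99 and that of Igsf23 at 0.928.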

How the data were processed

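RNA from 6 aortas was selected on poly-T beads and reverse transcribed with random hexamers, per the labels' protocols. The values that the authors deposited are raw read counts by Ensembl gene identifier for the 6 libraries, not normalized, on genome build mm39 per the submitters' processing notes. For the aligner, counter, strand setting and annotation release, no name or setting is given in the sources used here. Coordinates, biotypes and gene lengths (in bases) are those of the deposited table. Samples were grouped by title, and 0 columns lacked a sample.

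The test was edgeR 4.0.16, run under R 4.3.3, on the counts: filterByExpr (minimum count 10, minimum total 15), TMM scaling, glmQLFit and glmQLFTest, sST2-KO against WT over all 16377 genes passing, Benjamini-Hochberg adjustment and a threshold of 0.05. SE values are the absolute log2 change over the root of the F statistic. Positive values are higher in sST2-KO. The fit was tested on simulated data. Alternatives were DESeq2 1.42.0, RLE scaling, scaling to the upper quartile, limma-voom (limma 3.58.1) with and without sample quality weights, other filters, windows and thresholds, a replicate block, and leaving out libraries; protein-coding members alone and a GC reference were added after seeing the data. GC content came from the longest GENCODE vM21 transcript per identifier. Floors of 3 counts (0.167 to 0.192 CPM) cover counting error only. Plots used matplotlib 3.10.9.

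The members and the gene lists were chosen with earlier results of these data known. Named genes were those within 100 kb of Apoe, the 6 named protein-coding members per direction with the lowest p, 2 by p and 1 by level from each list, the 3 most set by 1 library, and members beside the level rule; others named are given by position, as neighbours or for a pattern, after their values were seen. A few items that the rule names are not reported here.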

Additional observations from a re-analysis of the deposited data

How the results depend on the processing

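Under all scalings, tools and filters tried, and without each library, the members' median log2 change stayed positive, from 0.31 to 0.43 when libraries were left out in turn. It was 0.29 with limma-voom and quality weights, 0.54 over the 48 members within 2.5 Mb of Apoe, and 0.18 relative to genes of the same decile of GC content. The 2.5 Mb window held the same 48 members as the middle stretch described above. Of these, 15 were higher at an unadjusted p under 0.05 in edgeR, 20 had groups apart and higher, and 40 were positive. Over all tested genes these shares were 5.08%, 9.09% and 53.5%, and 66.6 to 78% were positive in the 3 highest deciles of GC content. DESeq2 called 8 members higher and 1 lower (0.360% and 1.42% of all tested genes), and limma-voom with quality weights called 1 lower (0.214%). Leaving out libraries in turn gave 0 to 1 members called lower. Members lower at an unadjusted p under 0.05 were 1 to 4 (3.57 to 6.38% of all tested genes in those fits). Those lower with groups apart were 4 to 8 (12.9 to 17.3%). Without WT replicate 3 and sST2-KO replicate 2 together, 3 were lower at an unadjusted p under 0.05 and 11 with groups apart (4.08% and 21.1% of all tested genes). With fewer libraries a group, more genes have groups apart. Lower members at an unadjusted p under 0.05 were 2 with RLE, 2 with upper-quartile scaling and 6 with quality weights. In the same settings 984, 1107 and 1521 of the 16377 tested genes were lower. Among protein-coding members 0 were lower in edgeR with TMM scaling, where 5.95% of all tested genes were.

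Apoe changed sign with limma-voom (1.5), with a replicate block (1.84) and without both libraries (3.57), and ranged from -0.97 to 3.34 when libraries were left out in turn, with a change of sign in that series without WT replicate 3. Of 38 other named genes 35 kept their sign. Relb was at 0.01 with quality weights, 0.02 without both libraries and -0.16 to 0.14 with libraries left out. Ehd2 was at 0.27, 0.16 and -0.23 to 0.22, and Pglyrp1 ranged from -0.38 to 5.87. The causes were not tested. The sample titles name no pairs across the groups. Correlations of deviations from group means were 0.145, 0.0461 and -0.0866 for libraries that share number 1, 2 or 3. For libraries with unlike numbers they were -0.119 to 0.0452. So few values cannot settle whether shared numbers pair the samples. With a replicate block 24 members were higher at an unadjusted p under 0.05, where 945 of all 16377 tested genes were. The median was 0.40, and edgeR called 0.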
